A study of Drosophila melanogaster with 6 samples.

Results

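The cytochrome P450 gene family was examined in testes of *Pof* mutant and wild type flies. Members were taken as the probe sets that the array's probe-to-gene table assigns to exactly 1 gene with a symbol of the form Cyp, number, letters, number. This gave 83 probe sets for 81 genes, out of 13647 such probe sets and 11982 genes in all, and all 81 genes were found in the gene table of the Release 6 assembly. A further 2 probe sets name a Cyp gene together with another gene and were not used. The arrays are Affymetrix *Drosophila* gene chips, on which a probe set of several short probes stands for a transcript, and the values are log2 levels from RMA, which subtracts background, brings all arrays to 1 distribution and summarises each probe set. The *Pof* mutant males were y1 w67c23; Pof D119/Pof D119 and the wild type males y1 w67c23, so both carry the same X chromosome markers. Each genotype had 3 biological replicates of 60 testes each, dissected from males aged 0 to 24 h, on 6 arrays in all. Levels below 6, the level under which the study removed genes, were kept and are marked here as close to background. The number of arrays limits the precision.

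Cytochrome P450 enzymes are haem proteins that insert an oxygen atom into small lipophilic molecules, with electrons from a reductase or, in mitochondria, from a ferredoxin. Insect P450s fall into a CYP2 clan, which holds hormone and developmental enzymes, a CYP3 clan with many detoxification enzymes, a CYP4 clan whose known members act mostly on fatty acids, hydrocarbons and similar lipids, and a mitochondrial clan. Many of the CYP3 and CYP4 genes lie in tandem arrays that arose by duplication, and they are known for strong expression in gut, Malpighian tubule and fat body.

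*Pof*, whose product binds chromosome 4, had levels of 10.38, 10.50 and 10.30 in the *Pof* mutant replicates, against 12.98, 13.06 and 12.89 in the wild type replicates, and its change of -2.59 (standard error 0.092) passed the test in limma (adjusted p = 9.4e-05). Of 16 marker genes of the male germ line, 14 were at 6 or more on all 6 arrays, while *aly* and *twe* were below 6 on all of them. Of the 16, *dj* and *Mst84Db*, which act late in sperm formation, fell in the *Pof* mutant, by 0.75 and 0.53 on the log2 scale (limma, adjusted p = 0.0043 and 0.015). The other 14 did not pass, where 1.5% of all genes were lower. Of these 14, *mia* went the other way, with a change of 0.62 (limma, adjusted p = 0.212, or 0.049 with the replicate number added as a block). All 12 accessory gland genes measured and all 5 genes of the ejaculatory duct and bulb were also at 6 or more on every array, and these are tissues other than the testis. In such bulk samples, fewer cells of a type and less RNA per cell cannot be told apart. The first principal component of all genes set both replicate 2 arrays against the remaining 4 and held 52.8% of the variance. The second component held 31.5% and separated the genotypes.

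Of the 81 P450 genes, 24 (29.6%) were at 6 or more on all 6 arrays, 20 crossed 6 between arrays and 37 (45.7%) stayed below 6 on every array. Among all 11982 genes, 57% were at 6 or more on all arrays and 32.6% below 6 on all of them. By clan, 11 of 37 CYP3 genes, 11 of 32 CYP4 genes, 1 of 8 mitochondrial genes (*Cyp49a1*) and 1 of 4 CYP2 genes (*Cyp305a1*) were at 6 or more on every array. The CYP4 genes of this kind were *Cyp4p1*, *Cyp4p3*, *Cyp4g1*, *Cyp4ac1*, *Cyp4ac3*, *Cyp4d2*, *Cyp4d8*, *Cyp4e1*, *Cyp4e2*, *Cyp4ad1* and *Cyp312a1*, and the CYP3 genes were *Cyp9c1*, *Cyp9f2*, *Cyp6u1*, *Cyp6d2*, *Cyp6d4*, *Cyp6d5*, *Cyp6a2*, *Cyp6a13*, *Cyp28c1*, *Cyp309a2* and *Cyp310a1*. All 6 genes of the Cyp313 family were below 6 throughout.

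In *Pof* mutant compared with wild type testes, *Cyp6a17* and *Cyp4e1* rose, *Cyp4p1* and *Cyp9c1* fell, and 77 P450 genes did not pass the test in limma at an adjusted p under 0.05 over all genes. These 4 are 4.94% of the family, against 2.77% of all genes tested. Of all genes, 1.27% were higher and 1.5% lower. The median log2 change was -0.020 over the family and 0.0027 over all genes, with 39 P450 genes above and 42 below 0. A change of 1 or more on the log2 scale, in either direction, was measured for 7 P450 genes, and for 67 it was under 0.5 in size. The standard error of a change ranged from 0.074 to 1.54 over the family, with a median of 0.14, and was 0.5 or more for 8 genes. Within the clans, CYP3 had 1 gene higher and 1 lower of 37, CYP4 1 higher and 1 lower of 32, and neither the 8 mitochondrial nor the 4 CYP2 genes had one that passed.

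**Figure D1:**
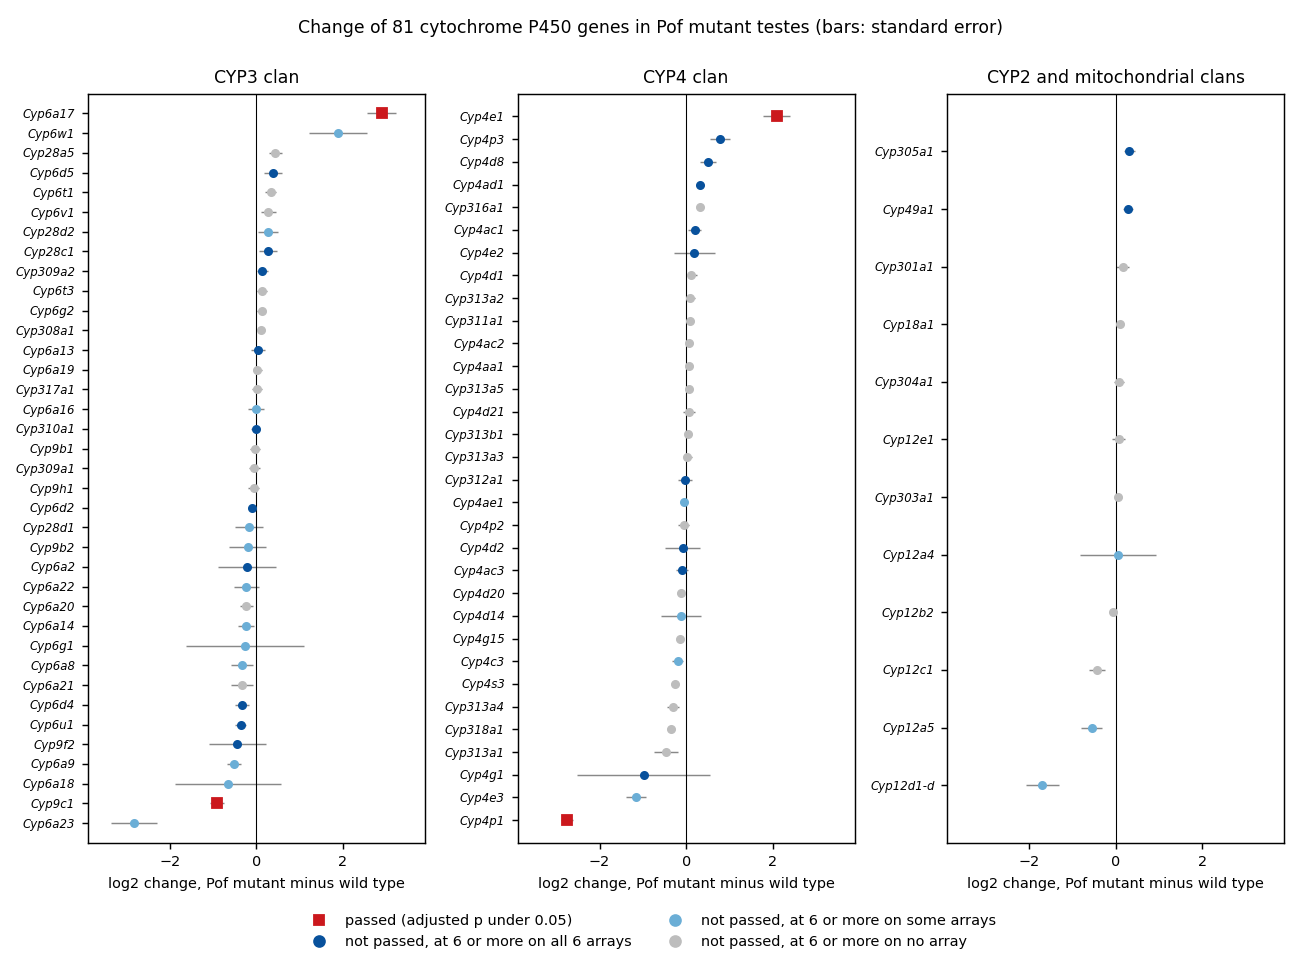
Log2 change (*Pof* mutant minus wild type, horizontal axis) of the 81 P450 genes, sorted within clans, with bars for the standard error. Red squares mark the 4 genes that passed, and blue to grey points show on how many arrays a gene was at 6 or more. Most points lie within 0.5 of 0.

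*Cyp6a17*, a gene of the Cyp6a array known for its part in temperature preference behaviour, had levels of 8.08, 6.64 and 7.34 in the *Pof* mutant replicates, against 4.63, 4.37 and 4.38 in the wild type replicates. All mutant arrays were above 6 and all wild type arrays were below it, so the groups were well apart and the wild type values lay near background. Its log2 change was 2.90 (limma, adjusted p = 0.0081, with a standard error of 0.34), and the size is uncertain because of the low wild type level. The gene next to it, *Cyp6a23*, a close paralog, went the other way, with levels of 6.45, 5.37 and 6.02 in the *Pof* mutant replicates, against 9.35, 7.57 and 9.42 in the wild type replicates. These groups did not overlap either. The change of *Cyp6a23* was -2.83 (standard error 0.54), the lowest of the family, and it just missed the threshold (limma adjusted p = 0.051). The labels state no pairs of arrays, and in the data only replicate 2 was clearly matched across the genotypes. With that limit, a paired comparison of same-numbered arrays, made in limma by adding the replicate as a block, called *Cyp6a23* (adjusted p = 0.0046). It also passed with the study's minimum of 6 in wild type and a constant per mutant array (adjusted p = 0.040), where *Cyp4e1* was the P450 gene higher and *Cyp4p1*, *Cyp9c1* and *Cyp6a23* those lower, against 4.78% of all genes kept (2.5% higher and 2.28% lower). The differences within the pairs of arrays 1, 2 and 3 were -2.90, -2.20 and -3.40 for *Cyp6a23*, and 3.45, 2.27 and 2.96 for *Cyp6a17*. Both have a single probe set. Whether its probes also bind the paralog was not tested.

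*Cyp4e1*, of the CYP4 clan, was the other P450 gene that rose. It had levels of 8.98, 9.05 and 8.77 in the *Pof* mutant replicates, against 6.83, 6.18 and 7.50 in the wild type replicates. The mutant arrays lay close together, and every one of them was above every wild type array. The log2 change was 2.10 (limma, adjusted p = 0.021, with a standard error of 0.31), or 4.28-fold. The call was lost without *Pof* mutant replicate 1, 2 or 3 and without wild type replicate 1, with an adjusted p between 0.061 and 0.106.

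*Cyp4p1*, also of the CYP4 clan, had levels of 6.09, 6.26 and 6.58 in the *Pof* mutant replicates, against 9.13, 8.94 and 9.10 in the wild type replicates. Replicates differed little in either genotype and the groups were far apart. The level was 14.9% of that in wild type, a log2 change of -2.75 (limma, adjusted p = 3.2e-04, with a standard error of 0.14). It was the P450 gene with the lowest adjusted p, and it stayed past the threshold under all 15 alternatives, at an adjusted p between 1.1e-05 and 0.0046.

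*Cyp9c1*, a CYP3 gene, had levels of 6.17, 6.43 and 6.10 in the *Pof* mutant replicates, against 7.20, 6.86 and 7.41 in the wild type replicates. The mutant values lay just above 6, and all were below the wild type values. The log2 change was -0.92 (limma, adjusted p = 0.039, with a standard error of 0.16). This call was the least stable of the 4, since it was lost with the replicate block (adjusted p = 0.052) and without any 1 array other than wild type replicate 2 (adjusted p between 0.064 and 0.190). All 5 Cyp9 genes measured had a lower mean in the mutant, with changes between -0.92 and -0.04, and the other 4 did not pass. Of those 4, *Cyp9b1* and *Cyp9h1* were below 6 on every array. For *Cyp9f2* and *Cyp9b2* the standard error was larger than the size of the change.

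**Figure D2:**
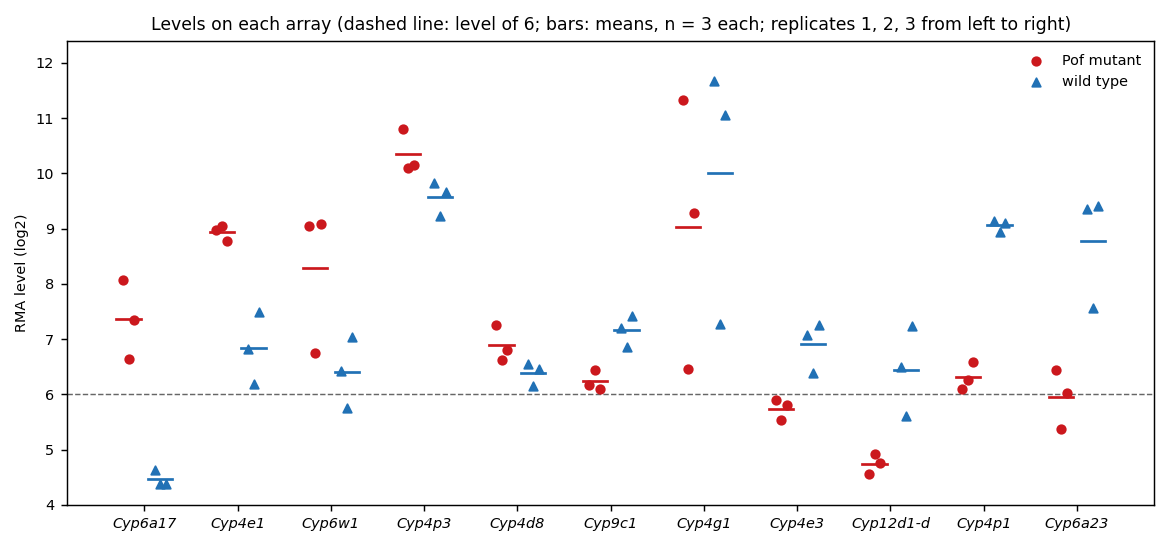
RMA levels (log2, vertical axis) of 11 P450 genes on the 3 *Pof* mutant arrays (circles) and the 3 wild type arrays (triangles), with bars for the means and a dashed line at 6. The groups are apart for *Cyp6a17*, *Cyp4e1*, *Cyp4p1*, *Cyp9c1* and *Cyp6a23*, and also for *Cyp12d1-d*, *Cyp4e3*, *Cyp4p3* and *Cyp4d8*. They overlap for *Cyp6w1*, and widely for *Cyp4g1*.

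In the paired comparison, 4 P450 genes were higher and 3 lower, 8.64% of the family against 4.98% of all genes (2.12% higher and 2.86% lower). The genes that joined *Cyp6a17*, *Cyp4e1*, *Cyp4p1* and *Cyp6a23* were *Cyp6w1*, *Cyp4p3* and *Cyp4e3*. *Cyp6w1*, which has been linked to DDT resistance, had levels of 9.04, 6.75 and 9.08 in the *Pof* mutant replicates, against 6.41, 5.76 and 7.04 in the wild type replicates. Replicate 2 was the lowest array of each genotype, so that the groups overlapped although each mutant array was above the wild type array of the same number. Its change was 1.89 (limma, adjusted p = 0.259, with a standard error of 0.67; with the block, adjusted p = 0.032).

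*Cyp4p3* lies next to *Cyp4p1* and had levels of 10.80, 10.10 and 10.16 in the *Pof* mutant replicates, against 9.82, 9.22 and 9.67 in the wild type replicates. The groups did not overlap, and the mutant was the higher one, unlike for *Cyp4p1*. The change was 0.78 (limma, adjusted p = 0.185, with a standard error of 0.24; with the block, adjusted p = 0.027). *Cyp4e3*, which lies on arm 2L apart from the other Cyp4e genes, had levels of 5.89, 5.54 and 5.80 in the *Pof* mutant replicates, against 7.07, 6.39 and 7.26 in the wild type replicates. It was below 6 in the mutant only. The change was -1.16 (limma, adjusted p = 0.061, with a standard error of 0.23; with the block, adjusted p = 0.012).

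Among P450 genes with a mean of 6 or more in either genotype, *Cyp12d1-d* and *Cyp4g1* were also among the 5 lowest changes and *Cyp4d8* among the 5 highest, and none of them passed with or without the block. *Cyp12d1-d*, of a duplicated mitochondrial pair known from insecticide resistance, had levels of 4.56, 4.91 and 4.75 in the *Pof* mutant replicates, against 6.49, 5.61 and 7.23 in the wild type replicates. All mutant arrays were below 6 and below every wild type array. The change was -1.70 (limma, adjusted p = 0.086, with a standard error of 0.38; with the block, adjusted p = 0.054). Its near-identical partner *Cyp12d1-p* had no probe set of its own, so its share in this signal was not tested. *Cyp4d8* had levels of 7.26, 6.62 and 6.80 in the *Pof* mutant replicates, against 6.54, 6.14 and 6.46 in the wild type replicates, a change of 0.51 (limma, adjusted p = 0.284, with a standard error of 0.19).

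Every *Pof* mutant array lay above every wild type array for 9 P450 genes and below every one for 11, together 24.7% of the family, against 20.6% of all genes (9.16% above and 11.4% below). The share was therefore close to that of all genes. Besides the genes already described, those above were *Cyp49a1*, *Cyp4ad1*, *Cyp6t1*, *Cyp316a1* and *Cyp313a5*, and those below were *Cyp6a9*, *Cyp6u1*, *Cyp318a1*, *Cyp6d4*, *Cyp4s3* and *Cyp4g15*. Their changes were at most 0.52 in size. None of the 37 genes below 6 on all arrays passed, and their changes lay between -0.46 and 0.44.

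All 4 P450 genes that passed lie on chromosome arm 2R, which carries 33 of the 81 genes. Without the block, no P450 gene passed among 13 on 2L, 6 on 3L, 15 on 3R and 14 on X, and none of the family lies on chromosome 4. With the block, *Cyp4e3* on 2L passed, beside 6 genes on 2R. Over all genes, 3.25% of those on 2R passed, against 4.26% on 2L, 2.86% on 3L, 2.52% on 3R, 3.08% on chromosome 4 and 0.641% on X. *Pof* itself lies on 2R. No label or method used here tells if both stocks share the rest of that chromosome, so the loss of POF and other differences on it cannot be told apart.

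Of the 81 genes, 42 lie in 15 runs of neighbouring P450 genes, with no other protein-coding gene between them in the gene table. Of the 4 genes that passed, 3 lie in such runs. In the run of 9 genes from *Cyp6a22* to *Cyp317a1*, *Cyp6a17* was at 2.90 and its neighbour *Cyp6a23* at -2.83, while the other 7 lay between -0.52 and 0.02. Among these 7, *Cyp6a20*, which is known from aggression between males, had a change of -0.24 and was below 6 on every array. *Cyp6a8* had one of -0.33 (standard error 0.26). In the run *Cyp4p2*, *Cyp4p1*, *Cyp4p3* the changes were -0.06, -2.75 and 0.78, and *Cyp4p2* was below 6 throughout. In the run *Cyp4ad1*, *Cyp4e2*, *Cyp4e1* they were 0.32, 0.18 and 2.10, the first with levels of 8.98, 9.03 and 8.79 in the *Pof* mutant replicates, against 8.56, 8.69 and 8.57 in the wild type replicates (limma adjusted p = 0.177).

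**Figure D3:**
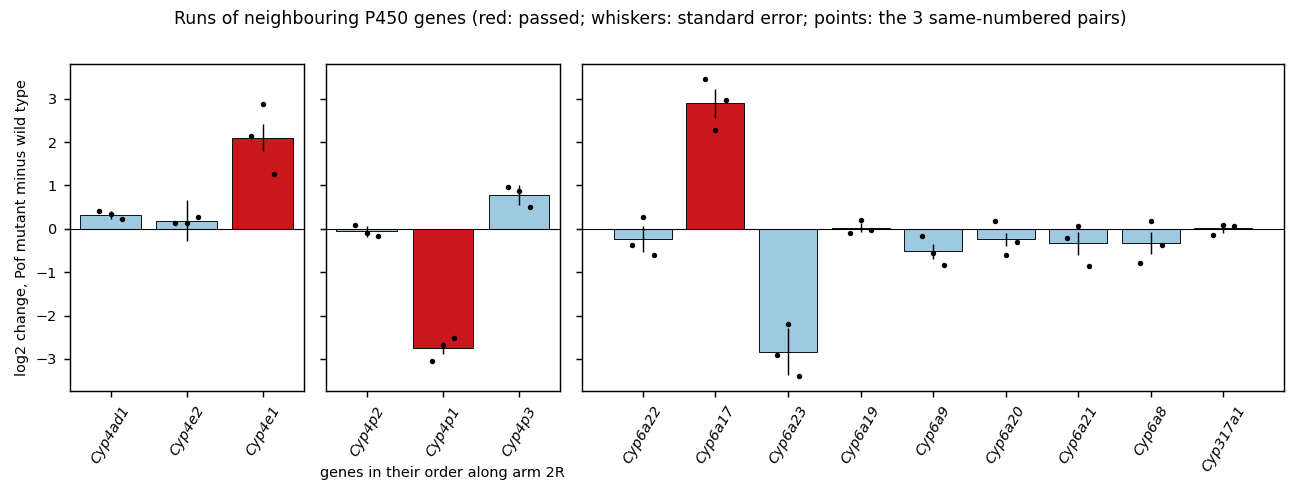
Log2 change (*Pof* mutant minus wild type, vertical axis) of the P450 genes in 3 runs of neighbours on 2R, in their order along the arm, with whiskers for the standard error and points for the same-numbered pairs of arrays. *Cyp6a17* and *Cyp6a23*, side by side, lie at 2.90 and -2.83, and *Cyp4p1* at -2.75 lies between *Cyp4p2* and *Cyp4p3*.

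A group of P450 genes varied far more between replicates than between genotypes. For 10 genes (12.3% of the family, against 2.5% of all genes) both replicate 2 arrays lay at least 0.5 below each of the other 4 arrays on the log2 scale, and for 0 P450 genes both lay as far above (0.0167% of all genes). The 10 were *Cyp4g1*, *Cyp6a18*, *Cyp9f2*, *Cyp6g1*, *Cyp6a2*, *Cyp28d1*, *Cyp4d14*, *Cyp4d2*, *Cyp12a4* and *Cyp4e2*, and the rule that picks them was set after their values were seen. *Cyp4g1*, the oenocyte enzyme of the last step of cuticular hydrocarbon synthesis, had levels of 11.33, 6.46 and 9.27 in the *Pof* mutant replicates, against 11.67, 7.28 and 11.05 in the wild type replicates. The replicate 2 array was lowest in each genotype, with a difference from the mean of the other 2 of -3.85 in the mutant and of -4.08 in wild type. The change between the genotypes was -0.98, with a 95% confidence interval of -4.68 to 2.72 (limma adjusted p = 0.852).

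*Cyp6g1*, the gene best known for resistance to DDT and neonicotinoids, had levels of 9.06, 6.69 and 10.01 in the *Pof* mutant replicates, against 10.19, 5.98 and 10.42 in the wild type replicates. Here too replicate 2 was far below the others, and the mutant array was lower in pairs 1 and 3 and higher in pair 2. The change of -0.27 had a 95% confidence interval of -3.56 to 3.01. *Cyp12a4*, linked to lufenuron resistance, had levels of 8.27, 5.80 and 8.62 in the *Pof* mutant replicates, against 7.99, 6.16 and 8.36 in the wild type replicates, a change of 0.06 (95% confidence interval -2.05 to 2.17). *Cyp6a2*, also linked to insecticide resistance, had levels of 8.05, 6.15 and 7.75 in the *Pof* mutant replicates, against 8.07, 6.33 and 8.20 in the wild type replicates, a change of -0.22 (95% confidence interval -1.81 to 1.37). In the paired comparison, which takes out the shared drop of replicate 2, the standard errors were 0.34 for *Cyp6g1*, 0.15 for *Cyp12a4* and 0.11 for *Cyp6a2*, and none of the 3 passed (limma, adjusted p = 0.723, 0.877 and 0.332).

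Markers of the gut moved with these 10 genes. Of 9 gut genes measured from a list of 12, among them trypsins, Jonah serine proteases and a maltase, 6 were low on both replicate 2 arrays by the same rule. Their summed level was 12.24, 8.97 and 13.13 in the *Pof* mutant replicates, against 12.70, 8.55 and 12.73 in the wild type replicates (log2 of the summed linear RMA levels). Of 4 Malpighian tubule genes measured, 2 were low in this way, with summed levels from 10.28 to 10.60 in the mutant and from 10.31 to 10.72 in wild type; the tubule genes *Uro* and *CapaR*, which define it, had no single-gene probe set. Of the 5 genes of the ejaculatory duct and bulb 3 were low in this way as well, as were *Act79B* and *TpnC41C* of 10 muscle genes. None was low among the 12 accessory gland genes and the 16 of the male germ line. The same held for the 7 fat body and haemolymph genes and the 4 of hub and cyst cells. The part of gut, tubule, duct and muscle RNA in the P450 levels was not tested.

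**Figure D4:**
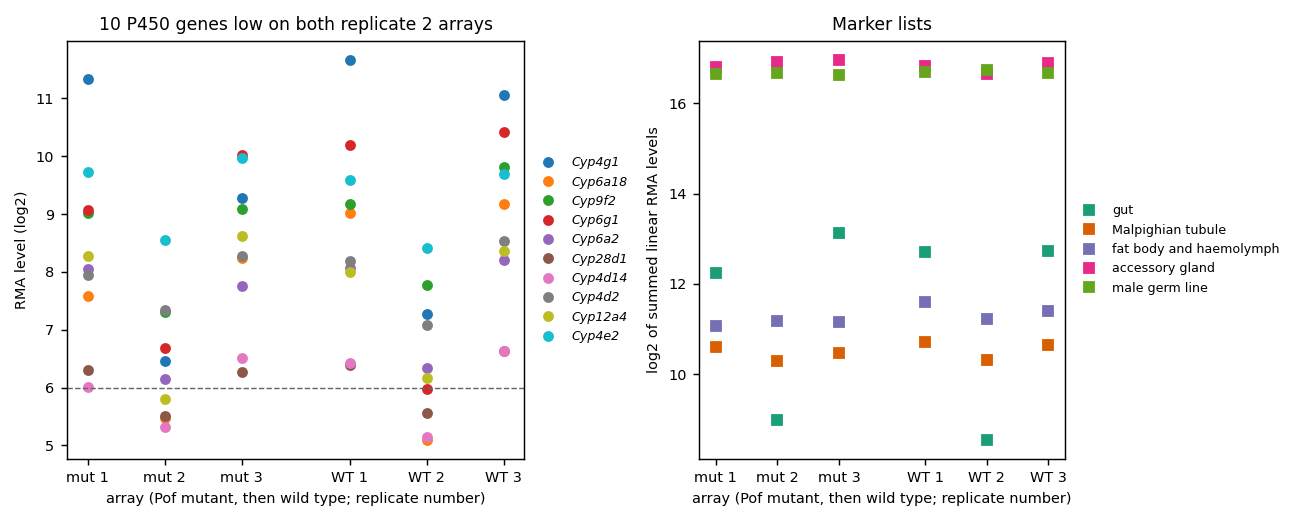
Left, RMA levels (log2) of the 10 P450 genes on each array, with a dashed line at 6; right, summed levels (log2) of 5 marker lists on the same arrays. On replicate 2 of both genotypes the P450 genes and the gut list are low, while the male germ line and accessory gland lists stay between 16.62 and 16.97.

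Some fat body markers, as also *dj* and *Mst84Db* of the germ line, were lower in the *Pof* mutant, while the germ line gene *mia* was higher and passed with the block only. Of 7 fat body and haemolymph genes measured, *Fbp1*, *Fbp2* and *Lsp2*, which encode larval fat body and storage proteins, fell in the *Pof* mutant, and the other 4 did not pass, where 1.5% of all genes were lower. The summed level of the list was 11.06, 11.17 and 11.15 in the *Pof* mutant replicates, against 11.60, 11.22 and 11.40 in the wild type replicates. *Fbp2* had levels of 5.42, 5.91 and 5.74 in the *Pof* mutant replicates, against 8.32, 7.42 and 7.58 in the wild type replicates, a change of -2.09. The yolk protein genes *Yp1* and *Yp2* were below 6 on every array, and *apolpp*, also of the fat body, did not differ between the genotypes beyond its error (change -0.0027, standard error 0.085). The part of fat body and germ line RNA in the falls of *Cyp4p1* and *Cyp9c1* was not tested.

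Several other P450 genes were at 6 or more on every array and did not pass. *Cyp312a1*, a CYP4 gene, had levels of 10.98, 10.62 and 11.17 in the *Pof* mutant replicates, against 10.92, 10.83 and 11.09 in the wild type replicates. The groups overlapped, and the change of -0.03 had a 95% confidence interval of -0.40 to 0.34. *Cyp310a1* had levels of 8.89, 8.92 and 8.61 in the *Pof* mutant replicates, against 8.89, 8.84 and 8.76 in the wild type replicates, a change of -0.02 with an interval of -0.28 to 0.24. *Cyp6d5*, listed with xenobiotic P450s, had levels of 11.42, 10.98 and 11.44 in the *Pof* mutant replicates, against 10.93, 10.55 and 11.21 in the wild type replicates, with each mutant array above the wild type array of the same number. Its change of 0.38 (95% confidence interval -0.10 to 0.87) did not pass (limma adjusted p = 0.477). *Cyp305a1* of the CYP2 clan and *Cyp49a1* of the mitochondrial clan had changes of 0.32 and 0.29 and did not pass either (adjusted p = 0.335 and 0.334).

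By function, none of the 9 P450 genes measured from the list for insecticides and other xenobiotics passed without the block, and their median change was -0.17. Of the 3 listed for behaviour or sex differences, *Cyp6a17* rose. *Cyp4d21*, which is male-biased in the fat body of the head, was below 6 on all arrays with a change of 0.07. *Cyp18a1*, which inactivates the moulting hormone, and *Cyp6t3*, which acts in its synthesis, were below 6 on every array, with changes of 0.10 and 0.13. The developmental genes *Cyp303a1*, of bristle formation, and *Cyp301a1*, of cuticle formation, were also below 6 throughout, with changes of 0.06 and 0.16. The glial and brain gene *Cyp4g15* stood below 6 with a change of -0.15.

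Partners of the P450 enzymes showed no gene that passed without the block. Of 9 genes measured for ecdysone synthesis, among them the P450 genes *spo*, *spok*, *phtm*, *dib*, *sad* and *shd*, which carry names of their own and are not among the 81, none passed, and the changes lay between -0.07 and 0.08. Only *shd*, whose product makes the active hormone, was at 6 or more on any array, and it was so on 5 of the 6. None of 7 haem synthesis genes and none of 10 regulators of the response to xenobiotics and hormones passed. All 4 genes measured from the list of electron donors were at 6 or more on every array. Among them, the ferredoxin gene *Fdx1* had a change of 0.50 with a standard error of 0.16 (limma, adjusted p = 0.200, and 0.048 with the block). *Cyt-b5-r*, by its name cytochrome b5-related, had one of -1.15 with a standard error of 0.40 (limma, adjusted p = 0.245, and 0.057 with the block). Whether its product gives electrons to P450 enzymes was not tested. The reductase gene *Cpr* and the gene *dare* of the same list were not among the genes measured with a single-gene probe set.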

How the data were processed

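Total RNA of dissected testes was hybridised to 6 arrays, 3 per genotype. The deposited log2 values had been made by the authors with RMA (version not given in the sources used here) for 18952 probe sets, with array medians between 5.78 and 5.88. Neither the minimum of 6 nor the renormalization in the study's methods had been applied to them; both together were an alternative. RMA can remove a change shared by most genes and understates changes of weak genes. In the array's table, 402 probe sets name several genes and 4903 none; these were left out, and probe sets of 1 gene were averaged on the log2 scale. R 4.3.3 and limma 3.58.1 (lmFit and eBayes, *Pof* mutant minus wild type) were run over 11982 genes, with Benjamini-Hochberg adjustment and a threshold of 0.05; figures used Python 3.11.15 and matplotlib 3.10.9. On simulated data (200 changed genes, 10 runs), 29.9%, 77.3% and 95.0% of changes of 0.5, 1 and 2 were called. The simulated noise was independent between arrays, with no shared replicate effect, and the changed genes were drawn from all genes. The median standard error was 0.14 for P450 genes and 0.12 for all genes, so these rates were not tested for the family. Deviations of same-numbered arrays from their group means correlated at 0.29, 0.86 and 0.59 across genes. Arrays numbered 1 and 3 also correlated across numbers, mutant 1 with wild type 3 at 0.48 and mutant 3 with wild type 1 at 0.56. Only replicate 2 was therefore clearly matched in the data. The labels state no pairs, so treating replicates 1 and 3 as pairs by number in the block is an assumption. Values are named for every P450 gene that passed, the 5 highest and 5 lowest changes among those at 6 or more in either genotype, and genes in role lists. The members and lists were chosen with earlier results of these data known. The alternatives were the minimum and constant, the constant alone, a minimum on all arrays, other handling of probe sets, the replicate block, other limma options, median centring and leaving out arrays. No sequences are printed, since those of the probes and genes were not used here.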

Additional observations from a re-analysis of the deposited data

How the results depend on the processing

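Against 2 P450 genes higher and 2 lower, 1 was higher with the minimum of 6 in wild type and the constant, and 1 with a minimum on the mean of all arrays, both of which remove *Cyp6a17* from the fit; 4 were higher with the replicate block. Over all genes, 188 of 7509, 128 of 7511 and 254 of 11982 were higher in these settings, in that order. The lower P450 genes were 4 with arrays centred on the median and 5 without both replicate 2 arrays, against 149 and 227 of all 11982 genes. Leaving out 1 array at a time gave 1 to 2 P450 genes higher and 1 to 6 lower (6 without wild type replicate 2). Of all 11982 genes, 58 to 156 were then higher and 76 to 198 lower (198 without wild type replicate 2). The median change over the family lay between -0.084 and 0.086 over all alternatives, so its sign is not settled. *Cyp4g1* moved between -2.34 and 0.30 when 1 array was left out, and turned positive without *Pof* mutant replicate 2. *Cyp4p1* kept its call under all 15 alternatives, and *Cyp6a17* under the 13 that kept it (adjusted p between 0.0014 and 0.042). *Cyp6a23* passed under 8 alternatives, *Cyp4e3* under 5, *Cyp6w1* under 3, *Cyp12d1-d* under 2 and *Cyp4p3* under 1. Over all genes, 332 passed, 597 with the block, and 134 to 354 with 1 array left out. Of those that passed, 45.8% were higher, and 55.5% with arrays centred on the median. Levels below 6 limit the fold changes of *Cyp6a17*, *Cyp6a23*, *Cyp4e3* and *Cyp12d1-d*.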
